A study of Homo sapiens with 11 samples.

Results

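The genes that make serine and pass its carbon on to folate were followed in A673sh Ewing sarcoma cells, in which 48 h of doxycycline silenced the fusion oncogene EWS-FLI1. The set holds 10 of the 19775 genes that the array names: PHGDH, PSAT1 and PSPH of serine synthesis, SHMT1 and SHMT2, MTHFD1, MTHFD1L and MTHFD2 of the folate cycle, and the transporters SLC1A4 and SLC1A5. They were chosen by name, and every probe set annotated with one of them alone was used, 23 of the 54675 on the array. All 7 groups were A673sh cells, one derivative of the A673 line, whose short hairpin RNA against EWS-FLI1 is switched on by doxycycline, and all were transiently transfected with a plasmid. In 4 groups of 2 arrays the plasmid was pRS-sh-scrambled or pRS-sh-FOXO1, each without doxycycline or with 1 µg/ml of it. The other 3 groups had 1 array each and no doxycycline: the empty vector pCDNA3, FLAG-FOXO1-AAA (T24A, S256A and S319A, which AKT cannot phosphorylate) and FLAG-FOXO1-S249A/S298A, which lacks the sites of the kinase CDK2. FOXO1 is a forkhead transcription factor. No group received doxycycline without carrying the inducible hairpin, so the drug and the knockdown cannot be told apart.

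Serine is built from the glycolytic intermediate 3-phosphoglycerate by PHGDH, PSAT1 and PSPH in turn. Serine hydroxymethyltransferases then move a carbon from serine to tetrahydrofolate, leaving glycine, and the MTHFD enzymes interconvert the folate-bound carbon that cells spend on purines, thymidylate and methionine. Proliferating tumor cells draw heavily on this route, and several of its genes are known targets of the stress factor ATF4.

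Levels are deposited log2 values of probe sets, so a difference of 1 is a doubling, and levels of different genes were not compared with each other. Where a gene has several probe sets, brighter and dimmer refer to their signal on the array. The 60th percentile of an array lay between 5.67 and 5.72 and its lower quartile between 4.07 and 4.10. Arrays of one group correlated at 0.991 to 0.996 over the 12326 genes tested, with 1 probe set per gene. FLI1, the ETS factor that is fused in EWS-FLI1, stood at 8.56 to 8.84 on the 4 shRNA arrays without doxycycline and at 6.92 to 7.25 on the 4 with it. The sources used here do not say whether the FLI1 probe set lies in the part that the fusion keeps. FOXO1 read 5.81 and 5.86 in sh-scrambled cells, 7.04 and 7.35 with doxycycline, 4.80 and 4.97 in sh-FOXO1 cells and 5.75 and 5.76 in sh-FOXO1 cells with doxycycline. It read 5.84 with empty vector, 8.30 with FLAG-FOXO1-AAA and 7.06 with FLAG-FOXO1-S249A/S298A. Of 7 Ewing sarcoma markers, 7 passed the filter on dim probe sets, as did 0 of 3 epithelial, 1 of 3 endothelial (PECAM1, 5.79 to 6.05) and 1 of 3 blood cell markers (HBB, 6.08 to 6.55). EPCAM, CDH1, KRT5, CDH5, VWF, PTPRC and CD3E did not pass it on any array.

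Promoters of 4 genes that the knockdown lowered are shown so that the sequences before genes that moved together can be read side by side. RefSeq promoter windows (build GRCh38.p14, 250 bases before to 50 after an annotated start) were matched by symbol for 8 of the 10 genes, with 14 windows, and not for PSPH and SHMT2. The windows printed lie on the plus strand at chr1:119711684-119711983 (PHGDH), chr9:78296875-78297174 (PSAT1), chr14:64388103-64388402 (MTHFD1) and chr2:64989149-64989448 (SLC1A4). Capitals mark the matches to the motifs searched, and a window without capitals held none.
PHGDH: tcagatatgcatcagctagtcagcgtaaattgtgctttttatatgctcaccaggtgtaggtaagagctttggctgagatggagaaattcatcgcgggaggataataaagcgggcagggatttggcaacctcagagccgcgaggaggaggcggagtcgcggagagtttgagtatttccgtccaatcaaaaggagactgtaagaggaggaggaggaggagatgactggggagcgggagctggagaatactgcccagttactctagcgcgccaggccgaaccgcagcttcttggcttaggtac
PSAT1: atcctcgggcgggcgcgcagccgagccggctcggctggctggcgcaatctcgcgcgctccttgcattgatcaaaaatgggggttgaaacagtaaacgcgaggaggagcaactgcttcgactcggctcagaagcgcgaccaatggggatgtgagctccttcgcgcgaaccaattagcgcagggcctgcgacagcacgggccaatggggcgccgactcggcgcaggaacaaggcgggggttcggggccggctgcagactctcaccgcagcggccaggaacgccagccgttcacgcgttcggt
MTHFD1: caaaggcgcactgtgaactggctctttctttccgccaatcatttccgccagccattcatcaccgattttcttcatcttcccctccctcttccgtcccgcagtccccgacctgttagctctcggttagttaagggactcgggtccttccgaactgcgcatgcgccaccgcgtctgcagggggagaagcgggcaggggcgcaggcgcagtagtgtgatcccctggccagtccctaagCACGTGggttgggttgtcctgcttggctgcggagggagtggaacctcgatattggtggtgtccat
SLC1A4: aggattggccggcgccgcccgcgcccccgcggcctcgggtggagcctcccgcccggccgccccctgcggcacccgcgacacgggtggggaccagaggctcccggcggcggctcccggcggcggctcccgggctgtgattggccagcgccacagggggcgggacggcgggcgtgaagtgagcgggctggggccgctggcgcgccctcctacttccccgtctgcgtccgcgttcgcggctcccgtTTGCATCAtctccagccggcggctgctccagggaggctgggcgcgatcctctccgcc

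Searched on both strands were TGATGNAA (the composite core read by ATF4 with C/EBP factors), CCGGAA (the ETS core), GGAAGGAA (a GGAA repeat, the kind of element EWS-FLI1 binds), GTAAACA (the forkhead core) and CACGTG (the E-box). The last is a palindrome, and CCGGAA and GGAAGGAA can overlap by their GGAA. The E-box of MTHFD1 began at position -15 from the start. The capitals of SLC1A4 are TGATGNAA read on the minus strand, beginning at -7, and the other window of that gene had no match. TGATGNAA stood in 5 of the 14 windows, of MTHFD1L, SLC1A4 and SLC1A5, and in 3.62% of all 35116 promoter windows. The E-box stood in 5 windows, of MTHFD1, MTHFD1L and SLC1A5 (7.26% of all windows), and the forkhead core in 1, of SLC1A5 (3.42%). For either of the first motifs, 3 of the 5 windows are overlapping windows of MTHFD1L that hold one and the same site. CCGGAA (17.2% of all windows) and GGAAGGAA (3.67%) stood in 0 of the 14. A match here is a run of letters and was not tested as a binding site.

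Knockdown of EWS-FLI1 lowered the 3 serine synthesis genes, MTHFD1, MTHFD2 and the transporter SLC1A4. In sh-scrambled cells 6 of the 8 measured genes were lower with doxycycline by more than 1 on the log2 scale at an adjusted p under 0.05 (limma, Benjamini-Hochberg over 12326 genes), and 0 were higher. Of all 12326 genes, 7.49% were lower and 8.1% higher by the same rule. The median change of the 8 was -1.41, beside -0.06 over all genes. Without the fold limit all 8 had an adjusted p under 0.05 in the lower direction, as had 35% of all genes. In these bulk samples, fewer cells with a transcript and less transcript per cell cannot be told apart. The call for MTHFD2 was lost without replicate 2 of the sh-scrambled cells, where its value was -0.91, and SHMT2 passed the limit there at -1.0, so the count stayed at 6.

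**Figure D1:**
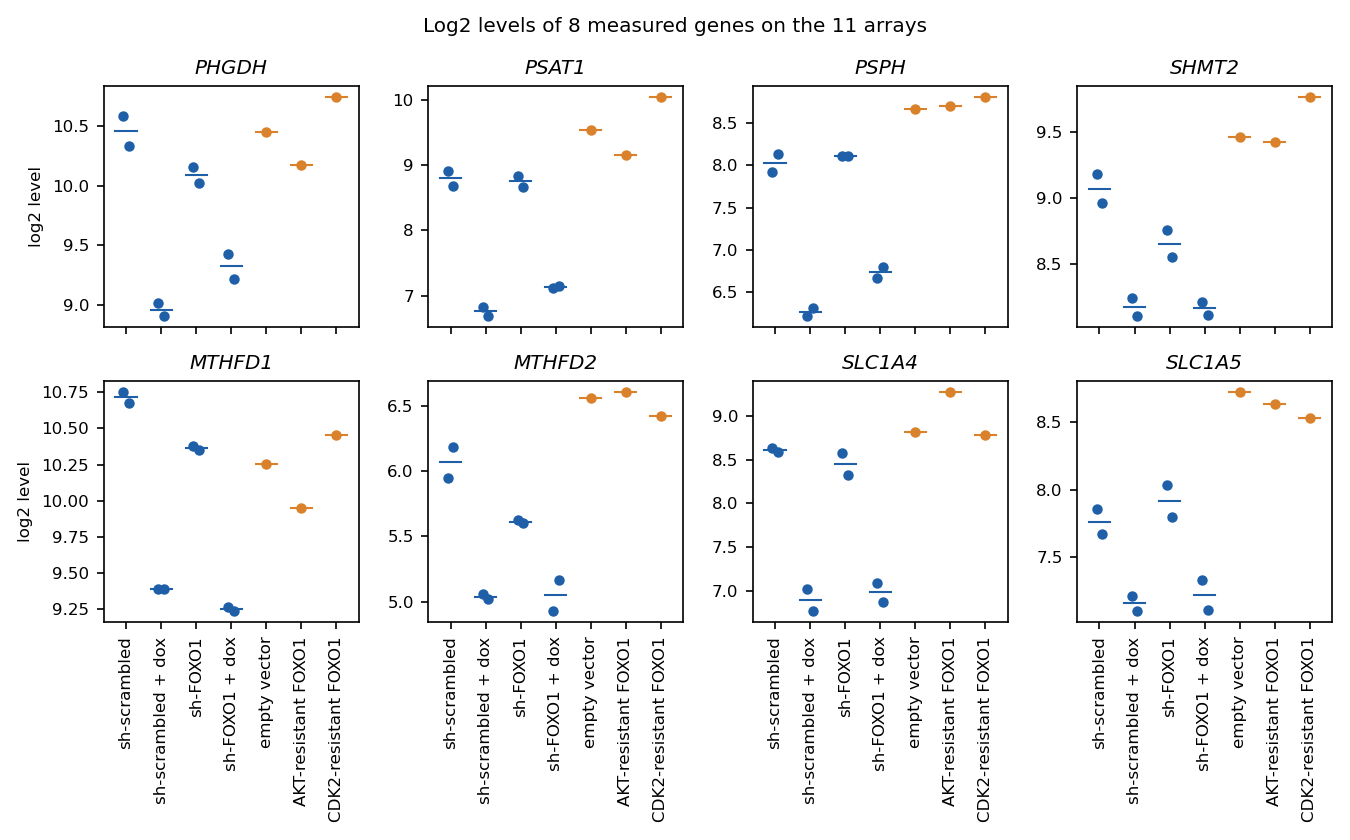
Log2 level of the probe set used for each of the 8 measured genes (vertical axis, scaled per gene) on the 11 arrays, by group (horizontal axis); points are arrays, short lines group means, blue the 4 shRNA groups with 2 arrays each and orange the 3 single-array groups. For every gene shown the arrays with doxycycline lie under those without it, as for PSAT1 with 6.70 to 7.15 against 8.67 or more. The share of all genes that separate this way was not counted.

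PSAT1, the aminotransferase of the second step, had the largest change of the 8. Its level was 8.92 and 8.69 in sh-scrambled cells and 6.83 and 6.70 with doxycycline. The log2 fold change was -2.04 (SE 0.10, adjusted p = 9.61e-07). Its second probe set, 223062_s_at, had a mean of 11.04 ± 0.05 (SD, n = 2) without and 8.90 ± 0.03 with doxycycline, a change of -2.14 (SE 0.08). Both probe sets placed all arrays with doxycycline under all arrays without it. The share of all genes that separate this way was not counted.

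PSPH, the phosphatase that releases serine, stood at 7.93 and 8.13 without doxycycline and at 6.22 and 6.31 with it. It fell by 1.76 on the log2 scale (SE 0.09, adjusted p = 1.15e-06). The probe set 205194_at moved from 8.95 and 8.99 to 7.33 and 7.42, a change of -1.60 (SE 0.08). One more, 244819_x_at, stayed between 3.35 and 4.24 on all 11 arrays, under the filter.

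PHGDH, the dehydrogenase that opens the pathway, has 1 probe set with its symbol alone. It read 10.58 and 10.33 without doxycycline and 9.01 and 8.91 with it. The change was -1.50 (SE 0.11, adjusted p = 9.98e-06). The serine synthesis genes were thus lower in each of the 3 steps.

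The folate genes differed among themselves. MTHFD1, the cytosolic trifunctional enzyme, read 10.75 and 10.68 without and 9.39 and 9.39 with doxycycline and fell by 1.32 (SE 0.07, adjusted p = 9.80e-07). Its other probe set, 239846_at, lay under the filter at 3.24 to 3.76 and had a value of 0.43 in the opposite direction. MTHFD2, a mitochondrial dehydrogenase and cyclohydrolase, was measured by probe sets that split at the limit. The one with the wider range, 234976_x_at, read 5.95 and 6.19 without and 5.06 and 5.02 with doxycycline, a change of -1.03 (SE 0.11, adjusted p = 6.05e-05). The brighter one, 201761_at, read 11.80 and 11.71 against 10.95 and 10.96, a change of -0.80 that does not pass the limit. Arrays of the groups did not overlap on either probe set, again without a count of this over all genes.

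SHMT2, the mitochondrial serine hydroxymethyltransferase, read 9.18 and 8.96 without and 8.24 and 8.10 with doxycycline. Its value of -0.90 (SE 0.11, adjusted p = 0.00014) stayed short of the limit, and its other probe sets gave -0.82 and -0.65. SHMT1, the cytosolic form, and MTHFD1L, a mitochondrial synthetase, were not measurable here. The probe sets of SHMT1 stayed between 3.71 and 4.36 and those of MTHFD1L between 3.24 and 4.31 on all arrays, near the lower quartile of each array, and no array reached the 60th percentile. No fold change is given for these genes.

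The transporters parted. SLC1A4, also called ASCT1, a carrier of alanine, serine and cysteine, read 8.63 and 8.59 without doxycycline and 7.02 and 6.77 with it, a change of -1.72 (SE 0.12, adjusted p = 7.78e-06). Among its 5 probe sets, 3 passed the limit (-1.72, -1.54 and -1.30), and the dimmer 209611_s_at and 244377_at gave -0.69 and -0.65. SLC1A5, also called ASCT2, a carrier of glutamine and other neutral amino acids, read 7.86 and 7.67 against 7.22 and 7.11. Its change of -0.60 (SE 0.12, adjusted p = 0.0022) did not pass the limit.

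Over all 23 probe sets, fitted with the whole array, 10 were lower past the limit and 0 higher, beside 2.81% of all 54675 probe sets that were lower. Of the 23, 17 reached the 60th percentile on an array. Shares of all probe sets, here and below, also count dim ones and those without a symbol. They are thus not matched to the members in brightness. Probe sets ending in _s_at or _x_at can match more than one transcript, and several of these genes have pseudogenes, so part of a signal may come from copies.

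**Figure D2:**
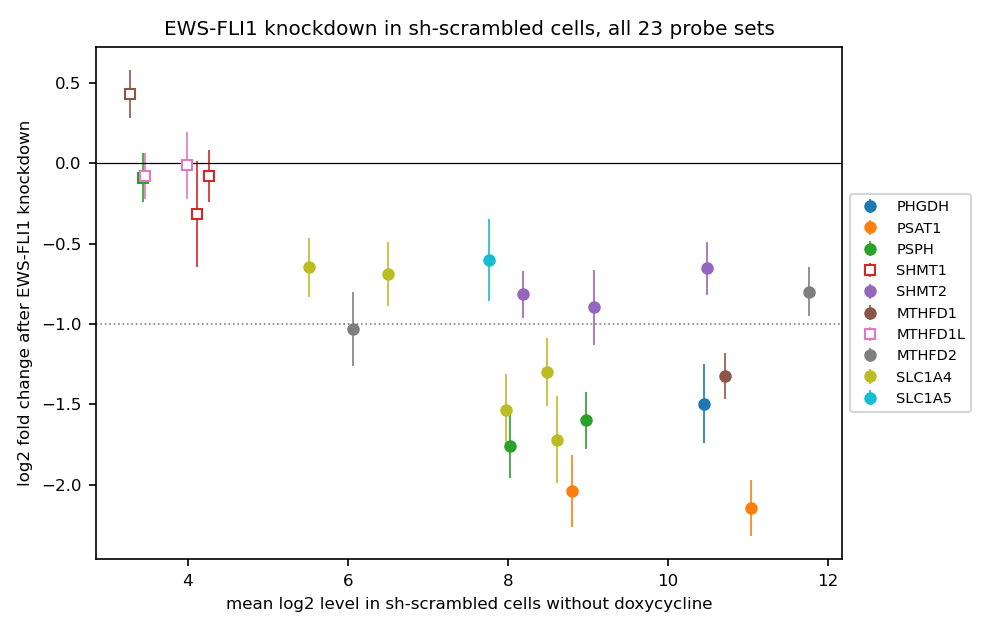
Log2 fold change with against without doxycycline in sh-scrambled cells (vertical axis) against the mean log2 level without doxycycline (horizontal axis) for the 23 probe sets; bars are 95% confidence intervals from limma, filled circles reached the 60th percentile of an array, open squares did not, and the dotted line is the limit of -1. The open squares lie at levels under 5, with changes from -0.31 (SHMT1, interval across 0) to 0.43 (MTHFD1), and the lowest points are both probe sets of PSAT1.

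In sh-FOXO1 cells the same knockdown lowered 4 of the 8 measured genes past the limit and raised 0, beside 6.38% of all genes that were lower and 7.27% that were higher. PSAT1 went from 8.84 and 8.67 to 7.12 and 7.15, a change of -1.62 (SE 0.10, adjusted p = 3.96e-06). SLC1A4 went from 8.58 and 8.32 to 7.09 and 6.87, a change of -1.47 (SE 0.12). These encode the enzyme that acts on the product of PHGDH and the serine carrier. PSPH went from 8.11 and 8.11 to 6.67 and 6.80, a change of -1.37 (SE 0.09), and -0.93 by its probe set 205194_at, which did not pass the limit. MTHFD1 went from 10.38 and 10.35 to 9.27 and 9.24, a change of -1.11 (SE 0.07).

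The other 4 genes stayed short of the limit in sh-FOXO1 cells, each with an adjusted p of 0.00445 or less. PHGDH, at 10.15 and 10.02 without and 9.43 and 9.22 with doxycycline, had a value of -0.76 (SE 0.11). SLC1A5 had -0.69, MTHFD2 -0.57 and SHMT2 -0.49. The median over the 8 was -0.94, beside -0.07 over all genes, and 33.5% of all genes had an adjusted p under 0.05 in this direction. By probe set, 7 of 23 were lower past the limit, beside 2.36% of all probe sets.

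The difference between the 2 knockdown effects was tested as an interaction, counted as the effect in sh-FOXO1 cells minus that in sh-scrambled cells. PHGDH alone passed at the limit of 0.7, with 0.73 (SE 0.16, adjusted p = 0.031), which makes 1 of the 8 higher, beside 1.46% of all genes higher and 2.45% lower. Its level with doxycycline was 9.43 and 9.22 in sh-FOXO1 cells and 9.01 and 8.91 in sh-scrambled cells, and the order without doxycycline was the reverse. This call depended on which arrays were kept, in fits that leave a group with 1 array, while its value stayed between 0.61 and 0.86. It was lost without replicate 1 or 2 of sh-FOXO1 cells (0.80 and 0.66), without replicate 1 of sh-FOXO1 cells with doxycycline (0.63), without replicate 1 of sh-scrambled cells (0.61) and without replicate 1 or 2 of sh-scrambled cells with doxycycline (0.78 and 0.68), at adjusted p values of 0.0498 to 0.11. It held without the other 2 arrays (0.84 and 0.86).

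Among the other members, MTHFD2 had an interaction of 0.47, PSAT1 0.42, SHMT2 0.41, PSPH 0.39, SLC1A4 0.25, MTHFD1 0.21 and SLC1A5 -0.09, and the lowest adjusted p of these was 0.11. On the probe sets used, the median of the 8 was 0.40, where that of all genes was near 0. Over the probe sets, PHGDH was the 1 of 23 called, beside 0.541% of all probe sets that were higher. The brighter probe sets of PSPH (205194_at) and PSAT1 (223062_s_at) had 0.67 and 0.63 at adjusted p values of 0.016 and 0.020, under the limit of 0.7. Other probe sets gave less than the one used. The brighter 201761_at of MTHFD2 had 0.19, and 214095_at and 214096_s_at of SHMT2 had 0.21 each, at adjusted p values of 0.32 or more (limma). FLI1 itself had an interaction of 0.37 (SE 0.14, adjusted p = 0.17), with a knockdown of -1.85 in sh-scrambled cells and of -1.49 in those with sh-FOXO1, and its part in the values of the members was not tested.

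**Figure D3:**
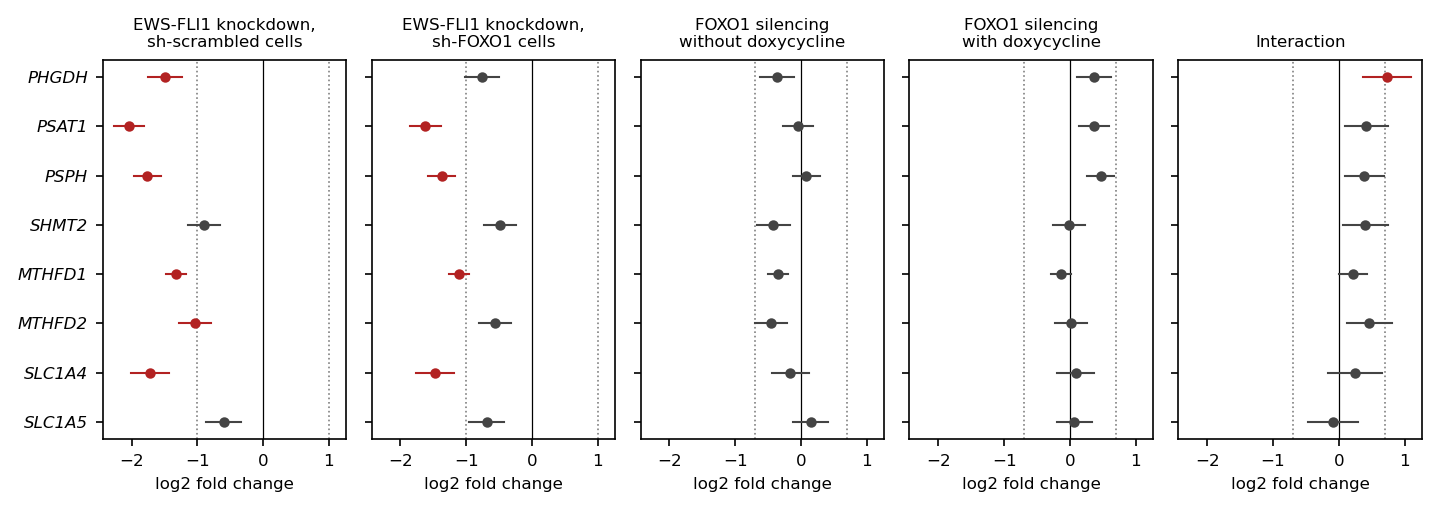
Log2 fold change (horizontal axes) of the 8 measured genes (rows) in each of the 5 tested comparisons (panels); points are limma estimates, bars 95% confidence intervals, red marks calls and dotted lines the limits of 1 for the knockdowns and 0.7 elsewhere. All 8 genes lie under 0 in both knockdown panels, and PHGDH is the call in the interaction panel at 0.73.

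Silencing of FOXO1 took no member past the limit at the level of genes. With doxycycline, sh-FOXO1 against sh-scrambled cells called 0 of the 8 genes (limma), beside 3.08% of all genes called higher and 2.37% lower. At an unadjusted p under 0.05 (limma) lay 3 of the 8, beside 4848 of all 12326 genes. The serine synthesis genes had the highest values, and each of these 3 had an adjusted p under 0.05 (limma) without reaching 0.7. The values were for PSPH 0.47 (SE 0.09, adjusted p = 0.0068), for PSAT1 0.37 (SE 0.10, adjusted p = 0.029) and for PHGDH 0.36 (SE 0.11, adjusted p = 0.046). These are adjusted over genes, and over all probe sets the value of PHGDH had an adjusted p of 0.064 (limma). For all 3 genes both arrays of sh-FOXO1 cells with doxycycline stood over both arrays of sh-scrambled cells with doxycycline. How many of all genes separate this way was not counted. The 3 genes were singled out by adjusted p on these same arrays, so the separation adds nothing to it. In this direction 14.1% of all genes had an adjusted p under 0.05. On the probe sets used, the other 5 genes lay between -0.13 and 0.09, at adjusted p values of 0.17 or more, with 95% confidence intervals that spanned 0. Some of their other probe sets had intervals that excluded 0 (limma over all probe sets). These were 201761_at of MTHFD2, the brighter one (0.24, adjusted p = 0.049), and 212810_s_at of SLC1A4 (0.29, adjusted p = 0.10). Below 0 lay 214095_at and 214096_s_at of SHMT2 (-0.18 and -0.19, adjusted p = 0.11 and 0.15) and the dim 239846_at of MTHFD1 (-0.30, adjusted p = 0.019).

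By probe set, 1 of the 23 was called in that comparison, beside 1.31% of all probe sets called higher. It was 205194_at of PSPH, which read 7.33 and 7.42 in sh-scrambled and 8.10 and 8.07 in sh-FOXO1 cells, a change of 0.71 (SE 0.08, adjusted p = 0.00072). It stood just over the limit, and just under it without replicate 1 of sh-FOXO1 cells with doxycycline (0.697) or replicate 1 of sh-scrambled cells with doxycycline (0.668).

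Without doxycycline, silencing of FOXO1 also called 0 of the 8 genes and 0 of the 23 probe sets (limma). Of all genes 3.45% were called higher and 2.33% lower, and of all probe sets 1.36% and 0.966%. At an unadjusted p under 0.05 (limma) lay 4 of the 8 genes, beside 5032 of all 12326 genes. The same rule held for 7 of the 23 probe sets and was not counted over all probe sets. At an adjusted p under 0.05 alone, 4 genes lay lower, beside 14.7% of all genes. They were MTHFD2 with -0.46 (adjusted p = 0.014), SHMT2 with -0.42 (adjusted p = 0.020), PHGDH with -0.37 (adjusted p = 0.039) and MTHFD1 with -0.35 (adjusted p = 0.0059). Adjusted over all probe sets, the p of PHGDH was 0.060 (limma). The brighter MTHFD2 probe set, 201761_at, gave 0.05, while the 3 of SHMT2 gave -0.42, -0.39 and -0.39. SLC1A4 had -0.16, SLC1A5 0.15, PSPH 0.08 and PSAT1 -0.05. The FOXO1 comparisons and the knockdown comparisons share arrays, so their values are set side by side and were not correlated.

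The FOXO1 mutants were measured on 1 array each, without replicates, so the differences from the empty vector array have no test, and both mutants share that array. None of the 8 genes differed by more than 0.7. With FLAG-FOXO1-AAA, 1.69% of all genes were higher and 1.51% lower past that size, and with FLAG-FOXO1-S249A/S298A 1.73% and 1.54%. PSAT1 read 9.54 with empty vector, 9.16 with FLAG-FOXO1-AAA and 10.04 with FLAG-FOXO1-S249A/S298A, differences of -0.38 and 0.50. Its second probe set gave 0.03 and 0.12. PHGDH read 10.45, 10.17 and 10.74 in the same order, and MTHFD1 10.25, 9.95 and 10.45. On these probe sets the 3 genes read lowest with FLAG-FOXO1-AAA and highest with FLAG-FOXO1-S249A/S298A. The second PSAT1 probe set did not share this order (11.28, 11.31 and 11.40). SHMT2 had it on the probe set used (-0.04 and 0.30 from empty vector), and the remaining measured members did not. How many of all genes have this order was not counted.

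SLC1A4 read 8.81 with empty vector, 9.28 with FLAG-FOXO1-AAA and 8.78 with FLAG-FOXO1-S249A/S298A. Of its 5 probe sets, 4 differed by 0.44 to 0.51 with FLAG-FOXO1-AAA, and the dim 244377_at by -0.17. SHMT2 read 9.46, 9.42 and 9.77, PSPH 8.67, 8.70 and 8.81, MTHFD2 6.56, 6.61 and 6.42, and SLC1A5 8.72, 8.64 and 8.53. The empty vector array stood apart from the sh-scrambled arrays without doxycycline for several members, by 0.96 for SLC1A5, 0.74 for PSAT1 and 0.64 for PSPH. With the mean of those 3 arrays as the control, PSAT1 differed by 0.99 with FLAG-FOXO1-S249A/S298A and 0.11 with FLAG-FOXO1-AAA. The differences of SLC1A5 then turned from -0.09 to 0.55 with FLAG-FOXO1-AAA and from -0.19 to 0.44 with FLAG-FOXO1-S249A/S298A. With FLAG-FOXO1-AAA that control also moved SHMT2 from -0.04 to 0.22, PSPH from 0.03 to 0.46, MTHFD2 from 0.05 to 0.38, SLC1A4 from 0.46 to 0.60 and MTHFD1 from -0.30 to -0.61. With FLAG-FOXO1-S249A/S298A it moved MTHFD1 from 0.20 to -0.11, MTHFD2 from -0.14 to 0.19, SLC1A4 from -0.03 to 0.10, PSPH from 0.14 to 0.57 and SHMT2 from 0.30 to 0.57.

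The members varied together across the 11 arrays, with the 4 arrays with doxycycline apart from the rest. The correlation of a gene with the mean of the other members ran from 0.82 for MTHFD1 to 0.99 for PSAT1. Outside the set, the genes most like the members' mean over the 11 arrays were SMIM20 (Pearson r = 0.997), SKA3 (0.996), MRPL37 (0.994), ATPAF1 (0.993) and NARS2 (0.992). SKA3, a kinetochore protein, read 5.18 to 5.29 with doxycycline and 6.50 to 7.75 without it. MRPL37, a mitochondrial ribosomal protein, read 8.57 to 8.64 with and at least 9.14 without doxycycline. These correlations describe 11 arrays that share transfections and treatment, and they were picked as the highest of all genes.

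Genes that take up the products of the pathway were counted from lists chosen by function. Their counts stand beside the 7.49% of all genes that were lower after knockdown in sh-scrambled cells and the 8.1% that were higher. After that knockdown, 3 of 8 tested genes of glycine cleavage and serine use were lower and 0 higher, with a median of -0.79 beside the -0.06 of all genes. These were CBS (-1.47) and CTH (-1.43), the transsulfuration enzymes that lead from serine and homocysteine to cysteine, and GCSH (-1.25), a carrier protein of glycine cleavage. Of 9 genes of the folate cycle 2 were lower, with a median of -0.69. They were TYMS (-1.95), which makes thymidylate from a folate-bound carbon, and GGH (-1.13), which trims folate polyglutamates. Of 11 purine synthesis genes 4 were lower and 0 higher, with a median of -0.93, led by PRPS1 (-1.44), PAICS (-1.42) and PRPS2 (-1.38). The brightest probe set of PAICS gave -0.92, under the limit. Of 6 methionine cycle genes 1 was lower, MTAP (-1.03), with a median of -0.32, and its brightest probe set gave -0.47. MTAP read 5.67 and 6.48 without and 4.80 and 5.29 with doxycycline. Its value fell short of the limit without replicate 2 of sh-scrambled cells (-0.63). The same held without replicate 1 of sh-scrambled cells with doxycycline (-0.78), and without any other single array it stayed past the limit.

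Genes upstream of serine, other carriers and regulators were counted in the same way, and no list was tested against those shares. Of 14 glycolysis genes 2 were lower and 0 higher, HK2 (-1.17) and TPI1 (-1.04, and -0.31 by its brightest probe set), with a median of -0.32. Of 12 other amino acid transporters 2 were lower, SLC7A5 (-1.22) and SLC38A5 (-1.09), and 1 higher, the cystine carrier SLC7A11 (1.10), with a median of -0.33. Of 16 genes counted as ATF4 and its targets 1 was lower, the asparagine synthetase ASNS (-1.50), and 2 were higher, DDIT4 (1.35) and STC2 (1.17), with a median of -0.36. ATF4 itself had -0.26 (SE 0.07, adjusted p = 0.0087), and its RNA level does not show its protein, which is regulated in translation. Of 7 upstream regulators 0 were called. MYC had -0.10 (SE 0.15, adjusted p = 0.61). At an adjusted p under 0.05 alone (limma), 11 of the 16 genes counted as ATF4 and its targets were lower and 2 higher. Of the glycolysis genes 8 were lower and 2 higher, of the other transporters 5 and 4, and of the upstream regulators 0 and 1. By that rule 4315 of all 12326 genes were lower and 3222 higher.

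**Figure D4:**
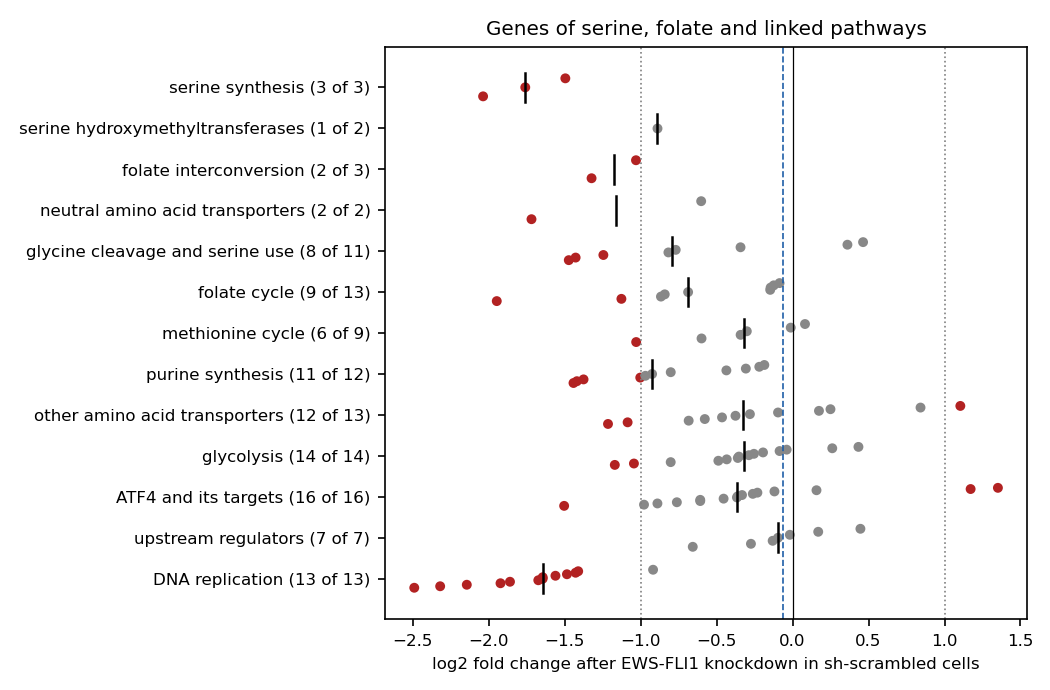
Log2 fold change with against without doxycycline in sh-scrambled cells (horizontal axis) of the members by role and of the other gene lists (rows, with tested of listed genes); each point is a gene, red if called, black ticks are list medians, dotted lines the limits of 1 in either direction and the dashed line the median over all genes, -0.06. The serine synthesis and DNA replication rows have the lowest medians, -1.76 and -1.65.

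Replication genes moved with the members. Of 13 DNA replication genes 12 were lower after knockdown in sh-scrambled cells, with a median of -1.65, led by RRM2 (-2.49), CDC6 (-2.32) and GINS1 (-2.15). Over the 11 arrays RRM2 ranged from 8.19 to 11.72, with 8.19 to 9.28 on the arrays with doxycycline. In sh-FOXO1 cells the count was again 12 of 13, with a median of -1.51. The part of lower replication in the values of the serine and folate genes was not tested. Of the 7 Ewing sarcoma markers 6 were lower, and their summed level ranged from 55.7 to 71.3 over the arrays.

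FOXO1 silencing changed some other genes of these lists. With doxycycline MTHFD2L, a mitochondrial relative of MTHFD2, fell from 6.92 and 7.05 to 5.54 and 5.97, a change of -1.23, and without it from 7.74 and 7.91 to 6.77 and 6.85 (-1.02). TYMS was lower by silencing with doxycycline (-0.79) and RRM2 in both conditions (-0.92 and -0.74). SLC7A5, which exchanges glutamine for large neutral amino acids, rose from 8.41 and 8.31 to 9.72 and 9.59 with doxycycline (1.30) and by 1.12 without it. For GART (1.06 with doxycycline), MAT2A (0.82) and MTR (-0.91) the probe sets disagreed, and the brightest gave 0.21, 0.07 and 0.10.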

How the data were processed

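RNA from 11 samples, 7 groups taken from the labels, was hybridized to Affymetrix arrays, 1 per sample. The authors deposited one log2 value per probe set, taken as log base 2 from its range; the sources used here do not say how these were summarized. Of 54675 probe sets, the platform annotation gives 41097 a single symbol, 1801 several and 11777 no symbol. Symbols were updated through Entrez numbers for 99.9% of the first. The 5 probe sets that name a member with other genes were not used. Probe sets that reached the 60th percentile on any array were kept, and each gene was read from its kept probe set of largest interquartile range, which left 12326 genes. Group means were fitted with limma 3.58.1 (R 4.3.3, empirical Bayes, 4 residual degrees of freedom), with Benjamini-Hochberg adjustment over all genes, and again over all probe sets. A call took a log2 fold change past 1 (knockdown) or 0.7 (other comparisons) and an adjusted p below 0.05; single arrays were compared by differences past 0.7. The script was tested on simulated data. Text names all members, up to 3 called genes per list with the largest knockdown change, list genes called for FOXO1 silencing with doxycycline, and ATF4, MYC, FLI1 and FOXO1. Members, lists and tests were chosen with earlier results of these data known. The labels do not say that replicates came from separate cultures, so p-values measure only the spread between these arrays, which may be technical. Their number, 2 per group, limits the precision. Alternatives tried were the probe set per gene, the filter, quantile normalization, the arrays fitted, a variance trend, a replicate block, another control and leaving out each array.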

Additional observations from a re-analysis of the deposited data

Results flagged for a closer look

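The effect of EWS-FLI1 knockdown differed between sh-FOXO1 and sh-scrambled cells in the following cases, by the interaction term of limma. PHGDH was lowered less in sh-FOXO1 cells, by a difference of 0.73 (adjusted p = 0.0312 over genes, 0.0440 over all probe sets), and over genes its adjusted p stayed under 0.05 in 3 of the 8 fits without one array. The probe set 223062_s_at of PSAT1 had a difference of 0.63 (adjusted p = 0.0197 over all probe sets), and 0.42 by the other probe set of the gene (adjusted p = 0.13 over genes). The probe set 205194_at of PSPH had a difference of 0.67 (adjusted p = 0.0164 over all probe sets), and 0.39 by the other (adjusted p = 0.12 over genes). Without one array the difference of 223062_s_at ran from 0.54 to 0.72 and that of 205194_at from 0.58 to 0.75, and each kept an adjusted p under 0.05 in 3 of the 8 fits.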

How the results depend on the processing

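The 6 members called lower by knockdown in sh-scrambled cells and the 4 in sh-FOXO1 cells stayed at 6 and 4 in count without any one array, where 1920 to 2020 and 1669 to 1729 genes were called. Probe sets of members called lower numbered 10 throughout and 6 to 8. For FOXO1 silencing, 0 members were called in every such fit, with 0 to 1 probe sets with doxycycline and 0 without, and 645 to 687 and 671 to 823 genes. The interaction called 0 to 1 members, 0 to 2 probe sets and 351 to 594 genes, and 0 probe sets after quantile normalization, where PHGDH had an adjusted p of 0.057 over all probe sets. With the brightest probe set per gene, FOXO1 silencing with doxycycline called 1 member (PSPH, 0.71), and MTHFD2 (-0.80) and PSPH (-0.93 in sh-FOXO1 cells) no longer passed the knockdown limit. With the mean of 3 arrays as control, FLAG-FOXO1-AAA moved 1358 genes past 0.7 in place of 394 (594 without the filter on dim probe sets, 209 with a stricter one), 1 member passed with FLAG-FOXO1-S249A/S298A (PSAT1, 0.99), and SLC7A5 turned from -0.31 to 0.72 there. The stricter filter left 204 genes in place of 403 for FLAG-FOXO1-S249A/S298A and, by choosing another probe set, turned GART to -0.79 with and -0.50 without doxycycline under FOXO1 silencing; the brightest probe set turned MTR to 0.10 with doxycycline. The replicate numbers are not stated to pair the arrays; deviations of arrays with the same number correlated at 0.44 to 0.62 between groups. With the replicate block, the members called numbered 6, 4, 0, 0 and 1, the genes called 1925, 1687, 680, 718 and 553 (knockdowns, FOXO1 silencing with and without doxycycline, interaction), and the adjusted p of the interaction was 0.0011 for PHGDH. It also went under 0.05 for SHMT2 (0.015), PSPH (0.027), PSAT1 (0.027) and MTHFD2 (0.032), from 0.11 to 0.16 without the block, at differences under 0.7. Then 5 of the 8 members had an adjusted p under 0.05 (limma) in place of 1. Without the block 389 of all 12326 genes were higher and 559 lower by that rule. The share of all genes with the block was not counted. The cause of these shifts was not tested. The 2 arrays per group and single array per mutant limit what can be told apart.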
